A study of Mus musculus with 4 samples.

Results

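The genes of the proteasome and of MHC class I presentation were examined in mouse dendritic cells treated with SAHA, on Affymetrix arrays. They were chosen by symbol, as every gene of the platform annotation whose symbol starts with Psma, Psmb, Psmc, Psmd or Psme, together with H2-K1, H2-D1, B2m, Tap1, Tap2, Tapbp, Erap1 and Nlrc5. This gave 52 of the 18194 genes measured, 44 with a Psm symbol and 8 of class I presentation. Of the Psm genes, Psmc3ip and Psme3ip1 share the name and are not subunits of the particle. Psme2, a chain of the PA28 activator, had no probe set annotated to it alone and was not analysed here.

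The cells were grown for 7 days from C57BL/6 bone marrow with 10 ng/ml of GM-CSF and as much IL-4, and were selected for CD11c, an integrin chain of dendritic cells, to a stated purity of 95%. At least 3 mice gave marrow for each experiment. The sample titles call the arrays biological replicates of their group. The labels do not say whether every array had its own pool, so p-values rest on the spread among these arrays, which may be technical. Control cells (2 arrays) received diluent and treated cells (2 arrays) received SAHA for 12 hours, at a dose the labels write as 500 nm. SAHA, or vorinostat, inhibits histone deacetylases, and the study asked how it changed the expression profile of these cells. Values are log2 expression values as deposited, a gene with several probe sets was read by the brightest of them, and groups were compared with limma across all genes, with a Benjamini-Hochberg adjusted p under 0.05 as the threshold. In bulk samples such as these, fewer cells of a type and less RNA per cell cannot be told apart.

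The proteasome degrades proteins marked with ubiquitin. Its 20S core is a barrel of alpha and beta rings, and the 19S cap, made of an ATPase base and a lid, recognises and unfolds substrates. The beta subunits Psmb5, Psmb6 and Psmb7 carry the active sites. In many immune cells, and under interferon gamma, newly made particles take up Psmb8, Psmb9 and Psmb10 in their place and form the immunoproteasome. Peptides it makes are carried into the endoplasmic reticulum by the transporter Tap1-Tap2, trimmed by Erap1 and loaded with the help of tapasin (Tapbp) onto heavy chains such as H2-K1 and H2-D1 paired with beta-2 microglobulin (B2m). Dendritic cells use this route to show antigen to CD8 T cells, and Nlrc5 is a transactivator of its genes.

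Across 18194 genes the 2 control arrays correlated at 0.993 and the 2 SAHA arrays at 0.995, against 0.982 to 0.989 between groups (Pearson's r over genes, which are no replicates). The mean over 11 dendritic cell markers was 10.3 to 10.4 log2 units in control and 10.4 to 10.5 in SAHA-treated cells. Over the 4 arrays Itgax, which encodes CD11c, lay between 12.44 and 13.40, Flt3 between 6.72 and 7.48, Zbtb46 between 7.76 and 7.93 and Cd209a between 4.47 and 4.68. Of the 11 only Irf4 passed the threshold (0.81, limma adjusted p = 0.0431), on the higher side, where 1.52% of all genes did. Ciita and Ccr7 had changes of 1.09 and -0.49. All 10 measured macrophage and monocyte markers were above the 25th percentile of every array, with a mean over the list of 11.8 to 12.2 in control and 11.7 to 12.1 in SAHA-treated cells. Without overlap 0 of them were higher and 5 lower, where 21.1% and 29.6% of all genes were. Mertk had the largest change, -0.92 (limma adjusted p = 0.0509), and was named after its value was seen. Of 8 mast cell and basophil markers 4 were below the 25th percentile on all 4 arrays, and the list means of T cells, B cells and NK cells ranged from 4.97 to 5.38. The mean over 10 neutrophil markers was 7.40 to 7.46 in control and 7.10 to 7.12 in SAHA-treated cells. Past the threshold 1 of them was higher and 5 were lower, where 1.52% and 0.709% of all genes were. Prtn3 was the higher one, at 3.65. The lower ones were Ngp (-1.88), Ltf (-1.56), S100a9 (-1.51), Camp (-1.13) and S100a8 (-0.82), so the mean joins opposite changes. The part of neutrophils in the results for the proteasome and class I genes was not tested.

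The upstream sequences of the immunoproteasome genes and of B2m are shown because Psmb10 differed in its values from Psmb8, Psmb9 and B2m. They come from RefSeq on GRCm38.p6, where 43 of the 52 genes have an entry, and are given 5′ to 3′ on the strand of the gene, ending at the base before its start. For Psmb9 and Tap1, neighbours that are transcribed away from each other, the 225 bases between their starts are shown on the strand of Tap1. Capitals mark matches on either strand to 7 motifs, namely the interferon-stimulated response element core, the STAT core TTCNNNGAA, an NF-kB motif, the antioxidant response element core TGACTCAGC, the CCAAT box, the GC box GGGCGG and the CRE core TGACG.
Psmb10, chr8:105938393-105938642, minus strand: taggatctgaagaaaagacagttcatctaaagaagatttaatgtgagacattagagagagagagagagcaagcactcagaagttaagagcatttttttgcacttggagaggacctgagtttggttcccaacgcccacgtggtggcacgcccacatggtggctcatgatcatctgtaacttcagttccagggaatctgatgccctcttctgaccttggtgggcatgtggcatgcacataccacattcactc
Psmb8, chr17:34197945-34198194, plus strand: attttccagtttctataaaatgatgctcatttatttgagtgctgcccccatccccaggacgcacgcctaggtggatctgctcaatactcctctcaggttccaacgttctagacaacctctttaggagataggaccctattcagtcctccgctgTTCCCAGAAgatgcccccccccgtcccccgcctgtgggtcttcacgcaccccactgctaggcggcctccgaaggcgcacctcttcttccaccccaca
Psmb9 and Tap1, chr17:34187331-34187555, plus strand: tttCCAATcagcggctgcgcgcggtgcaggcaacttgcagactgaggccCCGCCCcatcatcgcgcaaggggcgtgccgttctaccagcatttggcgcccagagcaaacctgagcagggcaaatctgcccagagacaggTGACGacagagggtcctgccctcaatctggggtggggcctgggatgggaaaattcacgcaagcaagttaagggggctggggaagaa
B2m, chr2:122147437-122147686, plus strand: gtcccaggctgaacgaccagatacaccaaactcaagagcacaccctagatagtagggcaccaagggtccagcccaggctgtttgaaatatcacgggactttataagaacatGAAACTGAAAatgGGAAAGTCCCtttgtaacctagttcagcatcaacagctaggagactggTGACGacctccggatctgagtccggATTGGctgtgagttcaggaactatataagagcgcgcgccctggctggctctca
The Psmb10 stretch held none of the 7 motifs. How many of all starts hold none of them was not counted. The stretches were chosen after the values were seen, and a relation of motifs to the changes was not tested. That of Psmb8 held 1 match, to the STAT core at 97 bases before the start, and that of Psmb9 and Tap1 held 3, a CCAAT box, a GC box and a CRE core. The B2m stretch held 4, with an interferon-stimulated response element core (GAAACTGAAA) at 139 bases and an NF-kB motif (a match on the opposite strand, printed as GGAAAGTCCC) at 126 bases before the start. Over the 250 bases before all 32851 starts in the table, the interferon-stimulated response element core was found in 2.98%, the STAT core in 7.02%, the NF-kB motif in 1.41%, the antioxidant response element core in 0.39%, the CCAAT box in 33.8%, the GC box in 32.7% and the CRE core in 17.8%. Among the 47 starts of the 43 proteasome and class I genes these counts were 4, 1, 2, 0, 22, 23 and 19 in the same order. A match is a description of the letters and shows no binding.

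Of the 52 genes, none passed the threshold in either direction (limma, lowest adjusted p = 0.0583), where 2.23% of all genes did, 1.52% higher and 0.709% lower. This fit had no replicate term, and the count depended on that, as given below with the other settings. At an unadjusted p under 0.05 there were 4 on the higher and 5 on the lower side, against 9.17% and 8.9% of all genes. The arrays of the groups did not overlap for 17 genes on the higher and 12 on the lower side, where 21.1% and 29.6% of all genes did so. The median log2 change was 0.02 over the 52 genes and -0.05 over all genes. Their median absolute change was 0.13, against 0.17 over all genes and 0.23 over the genes above the median level, among which 49 of the 52 lay. A change of more than 0.5 in either direction was seen in 4 of them, Psmb10, Psmc3ip, Erap1 and Psma6, which is 7.69%, where 11.9% of all genes and 18.2% of those above the median level showed one.

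**Figure D1:**
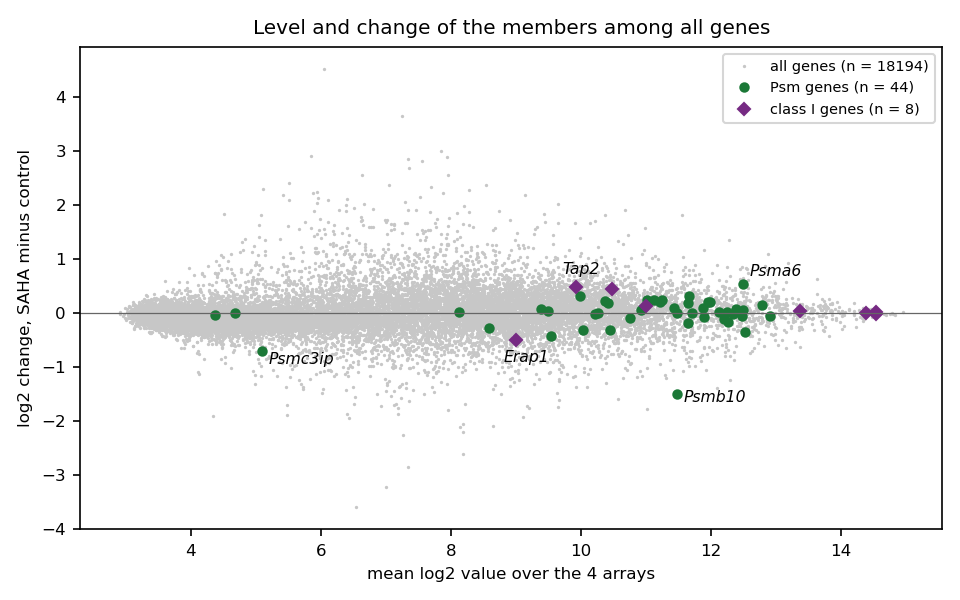
The mean log2 value over the 4 arrays (x axis) is plotted against the log2 change, SAHA minus control (y axis), for all 18194 genes (grey dots), the 44 Psm genes (green circles) and the 8 class I genes (purple diamonds). Most of the marked genes lie on the right of the plot and close to 0, with Psmb10 at -1.50 apart from them.

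The precision allowed bounds on most of these genes. The 95% interval of the change lay inside a 2-fold difference in either direction for 50 of the 52 genes, the exceptions being Psmb10 and Psmc3ip. The median SE was 0.13 log2 units over the 52 genes and 0.15 over all genes.

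**Figure D2:**
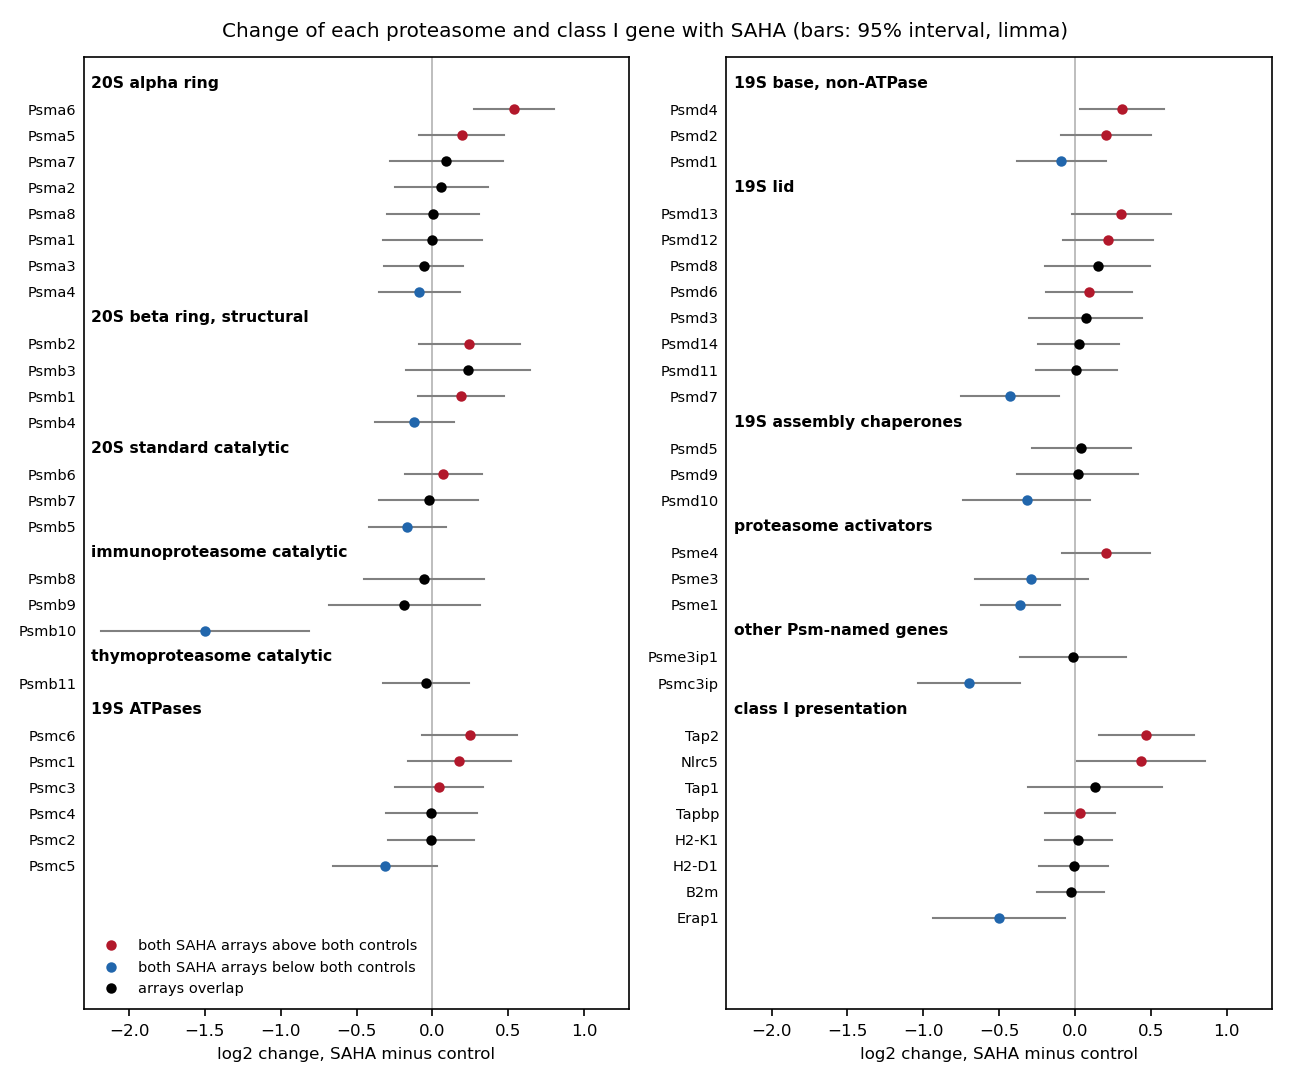
Log2 change, SAHA minus control (x axis), of each of the 52 genes, grouped by place in the complex or pathway; points are estimates and bars are 95% intervals from limma (2 arrays per group). Red marks genes with both SAHA arrays above both control arrays, blue those with both below and black those whose arrays overlap, and Psmb10 has the lowest value and the widest interval.

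Among the catalytic subunits of the immunoproteasome, Psmb10, also called MECL-1 and the counterpart of Psmb7, had the largest difference of all 52 genes. It read 12.03 and 12.41 log2 units on the control arrays and 10.29 and 11.15 on the SAHA arrays. Both SAHA arrays lay below both control arrays, and the SAHA arrays differed from each other by 0.86. The log2 change was -1.50 ± 0.28 (SE, 95% interval -2.18 to -0.81), a 2.82-fold lower value, with a limma adjusted p of 0.0583. By size it ranked 139th among the 18194 genes. The call depended on the arrays used: it passed without control replicate 1 (-1.69, adjusted p = 0.0414) and without SAHA replicate 2 (-1.93, adjusted p = 0.0385), and missed without control replicate 2 (-1.31, adjusted p = 0.0958) and without SAHA replicate 1 (-1.07, adjusted p = 0.157). Such a fit takes the spread of a single remaining array from the other group. Psmb10 was read by 1 probe set, so no second reading of it was at hand.

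The other immunoproteasome subunits had no such difference. Psmb8, or LMP7, the counterpart of Psmb5, read 12.78 and 13.09 in control and 12.71 and 13.06 in SAHA-treated cells, and its second probe set, at a lower signal, gave a change of -0.04. The arrays of Psmb8 overlapped, with a change of -0.05 (95% interval -0.45 to 0.34, adjusted p = 0.889). Psmb9, or LMP2, the counterpart of Psmb6, read 11.49 and 11.96 in control and 11.34 and 11.75 in SAHA-treated cells. Here too the arrays overlapped, at a change of -0.18 (95% interval -0.68 to 0.31, adjusted p = 0.675).

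The standard catalytic subunits stayed within narrow intervals. Psmb5, which has the chymotrypsin-like activity, read 12.33 and 12.36 in control and 12.16 and 12.20 in SAHA-treated cells, a change of -0.16 (95% interval -0.42 to 0.09) with both SAHA arrays below both controls. Psmb6, with the caspase-like activity, read 12.37 and 12.33 in control and 12.41 and 12.44 in SAHA-treated cells (0.07, 95% interval -0.18 to 0.33). The arrays of Psmb6 did not overlap, although the change was smaller than its SE of 0.10. Psmb7, with the trypsin-like activity, read 12.19 and 12.50 in control and 12.29 and 12.34 in SAHA-treated cells, and these overlapped (-0.02, 95% interval -0.35 to 0.30).

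To set standard against immunoproteasome subunits, the log2 value of the standard subunit was subtracted from that of its immunoproteasome counterpart within each array, and the difference was compared between groups. For Psmb10 minus Psmb7 it was 1.47 lower in SAHA-treated cells (difference -1.47), with no overlap of the arrays. The difference was -0.26 for Psmb9 minus Psmb6 and 0.11 for Psmb8 minus Psmb5, and in both pairs the arrays of the groups overlapped. With 2 arrays against 2 an exact two-sided permutation test cannot go below p = 0.333, which was the value for Psmb10 minus Psmb7, and the other pairs had p = 0.667, so that the adjusted p over the 3 pairs was 0.667 for each. Leaving out 1 array moved Psmb10 minus Psmb7 between -1.88 and -1.07. Psmb9 minus Psmb6 was -0.51 when control replicate 1 was left out and -0.0045 when it was control replicate 2. Psmb8 minus Psmb5 took either sign, at -0.03 without control replicate 1, -0.05 without SAHA replicate 2 and 0.27 without SAHA replicate 1. On replicates 1 and 2 it was 0.45 and 0.74 in control and 0.55 and 0.86 in SAHA-treated cells. Psmb9 minus Psmb6 was -0.88 and -0.37 in control and -1.07 and -0.69 in SAHA-treated cells. In both pairs replicate 2 was the higher in each group, and leaving out 1 array also leaves the replicate numbers unbalanced.

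**Figure D3:**
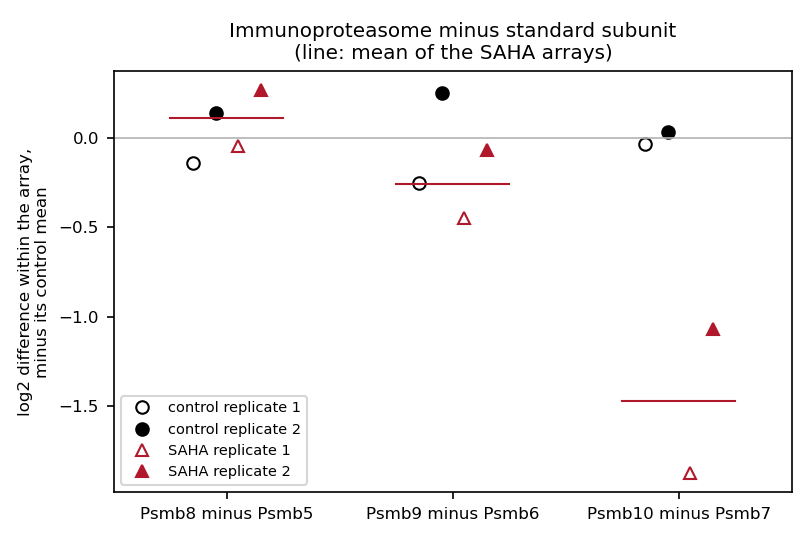
Log2 value of the immunoproteasome subunit minus that of the standard subunit within an array, less the mean of that difference in the control arrays (y axis), for the 3 pairs (x axis). Circles are control arrays, triangles SAHA arrays (open for replicate 1, filled for replicate 2) and the line is the mean of the SAHA arrays, which lies at -1.47 for Psmb10 minus Psmb7 and near the control arrays for the other pairs.

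Psmb11, the catalytic subunit of the thymus proteasome, and Psma8, an alpha subunit of the testis, served as readings of genes made in other tissues. Psmb11 lay between 4.28 and 4.42 and Psma8 between 4.62 and 4.76 over the 4 arrays, close to the 25th percentiles of the arrays, which were 3.94 to 4.04.

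In the alpha ring, which gates the entry of substrates, 2 of 8 genes had both SAHA arrays above both controls, Psma6 and Psma5, and 1, Psma4, had both below (list median 0.03). Over all genes these shares were 21.1% and 29.6%. Psma6 read 12.25 and 12.19 in control and 12.82 and 12.70 in SAHA-treated cells, without overlap. Its change of 0.54 ± 0.11 (SE, adjusted p = 0.0674) was the largest on the higher side among the 52 genes. All 3 further probe sets of Psma6 were higher on both SAHA arrays too, with changes of 0.50, 0.47 and 0.45, though they share a transcript and the arrays and are no independent evidence. Those at 0.47 and 0.45 had low signals, of 4.17 to 4.94 and 5.78 to 6.25 over the arrays. For Psma5 the control values were 11.78 and 11.92 and the SAHA values 12.03 and 12.06 (0.19, adjusted p = 0.434). The other 6 alpha genes had changes of -0.09 to 0.09.

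Of the 4 structural beta subunits, which carry no active site, 3 had changes above 0, where 7502 of all 18194 genes did (list median 0.21). Without overlap 2 were higher and 1 lower, against 21.1% and 29.6% of all genes. Psmb2 read 10.99 and 11.27 in control and 11.39 and 11.35 in SAHA-treated cells (0.24, adjusted p = 0.413), without overlap. Psmb3 read 11.02 and 10.99 in control and 11.46 and 11.02 in SAHA-treated cells (0.23, adjusted p = 0.509), where SAHA replicate 2 lay at the control level, while its second probe set gave 0.43 without overlap. Psmb1 and Psmb4 had changes of 0.19 and -0.12.

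In the 19S cap the ATPases, the ring of motors that unfolds the substrate, had a list median of 0.02 over 6 genes. Psmc5 was lower on both SAHA arrays, at 10.57 and 10.64 in control and 10.17 and 10.42 in SAHA-treated cells (-0.31, adjusted p = 0.319). Psmc6 was higher on both, at 10.82 and 10.98 in control and 11.09 and 11.20 in SAHA-treated cells (0.25, adjusted p = 0.383), and its further probe sets gave 0.36 and 0.56. The ATPases thus included non-overlapping genes on either side, 3 higher and 1 lower, against 21.1% and 29.6% of all genes.

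Among the 3 other base subunits, Psmd4, a ubiquitin receptor, read 11.48 and 11.54 in control and 11.87 and 11.77 in SAHA-treated cells (0.31, 95% interval 0.03 to 0.59, adjusted p = 0.236). A further probe set of Psmd4 gave 0.28 and another, at a lower signal, -0.19. Psmd2, a scaffold of the base, read 11.96 and 11.79 in control and 12.14 and 12.02 in SAHA-treated cells (0.20, adjusted p = 0.435). Both genes had SAHA arrays that lay above the control arrays, and Psmd1, the other scaffold, had them below (-0.09).

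Of the 8 lid genes 7 had a change above 0, where 7502 of all 18194 genes did, with a list median of 0.08. Without overlap 3 were higher and 1 lower, against 21.1% and 29.6% of all genes. The lid gene with a change below 0 was Psmd7, the partner of the deubiquitinase Psmd14, which read 9.70 and 9.80 in control and 9.32 and 9.34 in SAHA-treated cells (-0.43, 95% interval -0.75 to -0.10, adjusted p = 0.174). Its further probe sets did not show a difference of that size, at -0.08 and -0.06 and lower signals. Psmd13 read 9.82 and 9.85 in control and 10.23 and 10.06 in SAHA-treated cells (0.31, adjusted p = 0.305). The further probe sets of Psmd13 disagreed, at 0.23, 0.96 and -0.35, the last pair at 5.47 to 6.95 log2 units. Psmd14, which removes ubiquitin from substrates, had a change of 0.02 (95% interval -0.24 to 0.29).

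The 3 chaperones of 19S assembly had 1 gene apart. Psmd10, known as gankyrin, read 10.02 and 10.36 in control and 9.74 and 10.00 in SAHA-treated cells (-0.32, adjusted p = 0.396), without overlap but with control arrays 0.34 apart. Psmd5 read 9.50 and 9.43 in control and 9.56 and 9.46 in SAHA-treated cells (0.04), and Psmd9 had a change of 0.02.

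Activators that cap the core without an ATPase ring lay on either side of 0. Psme1, the alpha chain of the interferon-inducible activator PA28, read 12.66 and 12.75 in control and 12.30 and 12.39 in SAHA-treated cells, below the controls on both arrays (-0.36, 95% interval -0.62 to -0.10, adjusted p = 0.162). Psme3, the nuclear PA28 gamma, read 8.77 and 8.69 in control and 8.56 and 8.33 in SAHA-treated cells (-0.29, adjusted p = 0.391), and its further probe sets gave -0.14 and -0.36, the latter below the 25th percentile on 3 arrays. Psme4, or PA200, read 11.06 and 11.17 in control and 11.30 and 11.34 in SAHA-treated cells (0.20, adjusted p = 0.425). None of these 3 genes had overlapping groups, with 2 on the lower and 1 on the higher side, against 29.6% and 21.1% of all genes.

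Psmc3ip, a recombination protein of meiosis that only shares its name with the ATPases, had the second largest change of the 52 genes. Its values were low, at 5.41 and 5.48 in control and 4.66 and 4.83 in SAHA-treated cells (-0.70 ± 0.14, SE, adjusted p = 0.0638), and did not overlap. When its 2 probe sets were averaged the change was -0.62 and passed the threshold (limma adjusted p = 0.0473). The second of them read 4.03 and 4.05 in control and 3.52 and 3.47 in SAHA-treated cells, below the 25th percentile on 2 arrays. Psme3ip1, a nuclear protein that binds PA28 gamma, read 10.16 and 10.29 in control and 10.10 and 10.33 in SAHA-treated cells (-0.01), with overlap.

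**Figure D4:**
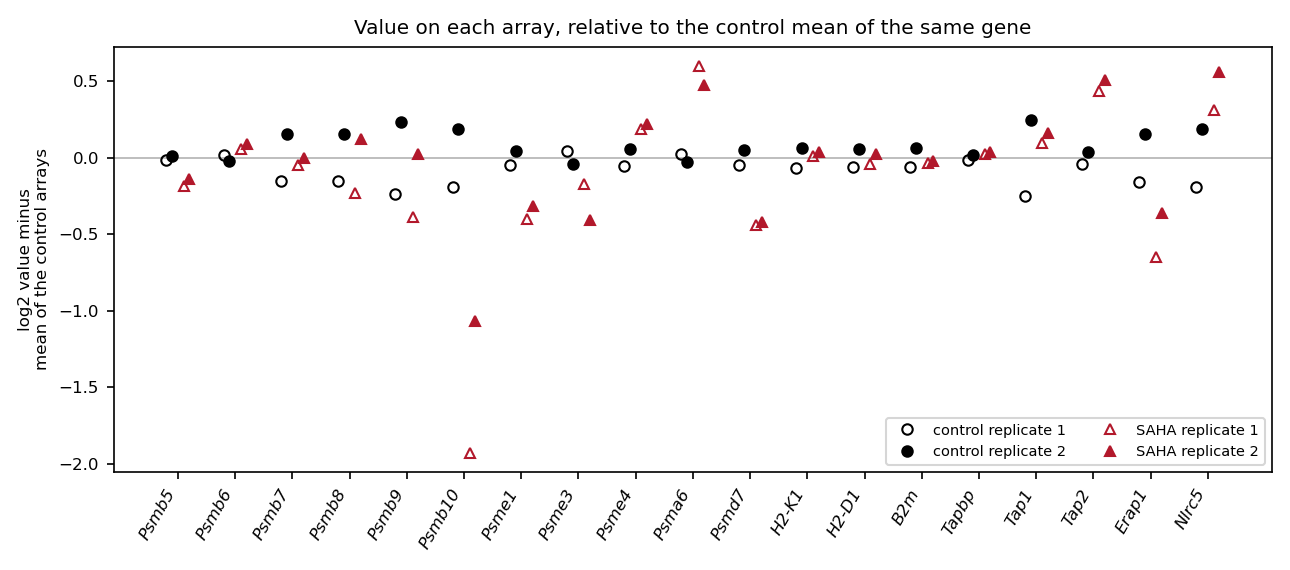
Log2 value on each array minus the mean of the 2 control arrays of the same gene (y axis) for 19 of the genes (x axis). Black circles are control arrays and red triangles SAHA arrays (open for replicate 1, filled for replicate 2), and the SAHA arrays of Psmb10 lie at -1.93 and -1.07 while those of H2-K1, H2-D1, B2m and Tapbp lie within 0.05 of the control mean.

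The class I molecule itself was at the top of the scale and the groups overlapped. H2-K1 read 14.46 and 14.59 in control and 14.53 and 14.56 in SAHA-treated cells, a change of 0.02 (95% interval -0.20 to 0.25). H2-D1 read 14.33 and 14.45 in control and 14.35 and 14.41 in SAHA-treated cells (-0.01, 95% interval -0.23 to 0.22). B2m, the light chain of all class I molecules, read 14.49 and 14.62 in control and 14.52 and 14.53 in SAHA-treated cells (-0.03, 95% interval -0.25 to 0.19). The highest value on any array was 14.97, and only 27 of 45101 probe sets had a mean above that of the lowest of these 3, so a limit of the scale on the high side was not tested. The probe sets reading H2-K1 and H2-D1 have the suffix x_at, a type that can share sequence with other transcripts, here other class I heavy chains. A further probe set of H2-D1 without that suffix, at 10.83 to 11.29, gave a change of -0.20, and the further probe set of H2-K1 that differed most gave -0.29, both with overlapping groups.

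None of the genes that load the class I molecule passed the threshold. The transporter chain Tap2 read 9.64 and 9.72 in control and 10.12 and 10.19 in SAHA-treated cells, higher on both arrays (0.47, 95% interval 0.16 to 0.79, adjusted p = 0.136). Its partner Tap1 read 10.68 and 11.18 in control and 11.03 and 11.09 in SAHA-treated cells, and both SAHA values lay between the controls (0.13, 95% interval -0.31 to 0.57). Whether Tap2 and Tap1 differed in their change was not tested. Tapbp, or tapasin, which bridges the transporter and the class I molecule, read 13.34 and 13.37 in control and 13.38 and 13.39 in SAHA-treated cells (0.03, 95% interval -0.20 to 0.26). These groups did not overlap, at a change below the SE of 0.10, and its second probe set gave -0.27 with SAHA replicate 2 apart at 11.61.

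Erap1, which trims peptides in the endoplasmic reticulum, read 9.10 and 9.41 in control and 8.61 and 8.90 in SAHA-treated cells, lower on both arrays (-0.50, 95% interval -0.94 to -0.07, adjusted p = 0.220). A second probe set of Erap1 gave -0.55. Nlrc5 read 10.07 and 10.45 in control and 10.57 and 10.82 in SAHA-treated cells (0.44, 95% interval 0.01 to 0.86, adjusted p = 0.263). The SAHA values of this class I transactivator thus lay above the control values, while those of the class I chains overlapped with the controls.

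Psmb9, Tap1, Psmb8 and Tap2 stand next to each other in the MHC, in this order and with 0 other protein-coding genes between them in RefSeq. Their changes were -0.18, 0.13, -0.05 and 0.47, and the arrays of the groups overlapped for all but Tap2. Psmb10 lies outside the MHC, on the chromosome that also carries Nlrc5, Psme3ip1 and Psmd7.

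The probe sets of a gene could be compared for 29 of the 52 genes, and 23 were read by 1 probe set. Of 64 further probe sets, 52, for 26 genes, were above the 25th percentile on all 4 arrays. Of these 34 had a change of the same sign as the one used. Where the gene had a change of over 0.2 in size, 16 of 18 did, the exceptions being 1 probe set each of Psmd4 and Psmd13.

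**Figure D5:**
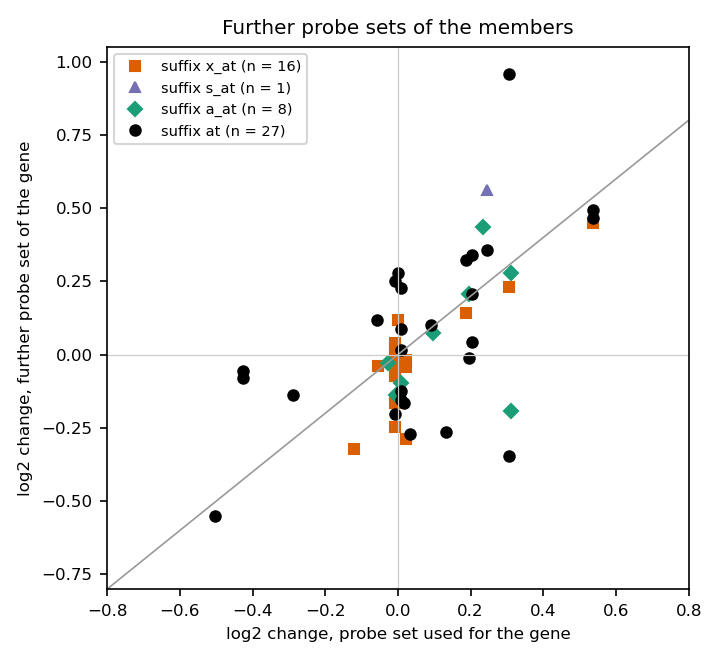
Log2 change, SAHA minus control, of the probe set used for a gene (x axis) against that of each further probe set of the gene above the 25th percentile on all 4 arrays (y axis), 52 in all, marked by probe set suffix. The line marks equal changes. The 3 further probe sets of Psma6 lie close to it at 0.45 to 0.50, and the Psmd13 points lie far from it at 0.96 and -0.35.

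Genes that work beside these were read from 6 further lists. Of 11 measured genes of proteasome assembly and accessory factors none passed the threshold (limma, lowest adjusted p = 0.128, list median -0.02). Without overlap 4 were higher and 3 lower, where 21.1% and 29.6% of all genes were. Psmg4, an assembly chaperone of the alpha ring, read 9.29 and 9.62 in control and 8.50 and 8.92 in SAHA-treated cells (-0.75), while the chaperones Psmg1 and Psmg2 had changes of 0.38 and 0.29. Of 10 genes of proteasome gene regulation and substrate delivery none passed (lowest adjusted p = 0.193, list median -0.06), and the largest changes were -0.40 for the shuttle factor Ubqln2, -0.35 for the deglycosylase Ngly1 and 0.27 for Ubqln1. Nfe2l1, the transcription factor that raises proteasome genes when the proteasome is inhibited, had a change of 0.11 and was named after its value was seen.

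Of 11 genes of class I loading and peptide trimming none passed, the nearest being Tapbpl. Tapbpl, the peptide editor TAPBPR and a relative of tapasin, read 9.08 and 9.63 in control and 7.65 and 8.23 in SAHA-treated cells, without overlap (-1.42 ± 0.26, SE, adjusted p = 0.0541). It passed without control replicate 1 (-1.69, adjusted p = 0.0226) and with robust spread (adjusted p = 0.0463). The chaperones Pdia6 and Hspa5 had changes of -0.63 and -0.56. The aminopeptidase Npepps had a change of 0.56, and the peptidases Blmh and Lap3 of 0.45 and 0.44, these 3 named after their values were seen. In all, 4 genes of the list were higher and 4 lower without overlap, where 21.1% and 29.6% of all genes were, and the list median was -0.01.

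Of 8 class I-like and other heavy chain genes 1 was lower past the threshold and none higher, where 0.709% and 1.52% of all genes were. Without overlap 2 of the 8 were higher and 3 lower, against 21.1% and 29.6% of all genes. Cd1d1, which presents lipids to NKT cells, fell 2.04-fold, from 11.40 and 11.65 in control to 10.41 and 10.58 in SAHA-treated cells (-1.03 ± 0.14, SE, adjusted p = 0.0293). The call was lost without control replicate 2 (adjusted p = 0.0557), without SAHA replicate 1 (0.173) and without SAHA replicate 2 (0.0815), with the change between -1.12 and -0.90. H2-T24 had a change of -0.85 (adjusted p = 0.297) and Mr1, which presents vitamin B metabolites, of 0.77 (adjusted p = 0.0981).

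Among 16 factors of class I and immunoproteasome transcription none passed (lowest adjusted p = 0.0924, list median -0.09). Bcl6, a repressor, had a change of 0.60, the NF-kB subunit Rela of -0.56 and Nfyc, a subunit of the CCAAT-binding factor, of -0.53. Irf1, an interferon-induced activator of immunoproteasome and Tap1 genes, read 10.76 and 11.31 in control and 10.55 and 10.97 in SAHA-treated cells, with overlap (-0.27, adjusted p = 0.573), and was named after its value was seen. Of 11 genes of cross-presentation none passed (lowest adjusted p = 0.0757, list median -0.04), with Rab27a at 0.83, the oxidase subunit Ncf1 at -0.61 and Lrba at 0.50.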

How the data were processed

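Total RNA (6 µg) from dendritic cells was labelled as biotin-cRNA for Affymetrix arrays, per the labels' protocols. The authors deposited log2 values per probe set for 2 control and 2 SAHA arrays. The log2 scale was read from the values, from 2.59 to 15.0. The submitters' processing notes name R 2.7; the summarisation and normalization are not given in the sources used here. Arrays give no read depth, and their number limits the precision.

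Of 45101 probe sets 34958 had 1 gene symbol, 932 several and 9211 none in the platform annotation, which can be old. Symbols were updated by Entrez identifier (34754 matched), and the symbols of the 52 genes stayed as they were. The probe set with the highest mean stood for a gene. The test was limma 3.58.1, run in R 4.3.3 (eBayes with an intensity trend, no filter, no covariate), two-sided, adjusted over 18194 genes. Pairs of subunits had an exact permutation test over arrays. On simulated arrays (18194 genes, 200 changed, 3 draws) the limma test called 26% of 2-fold and 67.3% of 4-fold changes. The changed genes were drawn from all genes and were fewer than the 405 called in the data, so these shares do not describe the 52 genes. Named were the catalytic, activator and class I genes, the 2 largest changes of each other structural group, and up to 3 per further list plus any past the threshold; Psma4, Psmb1, Psmb4, Psmd1, Psmd9 and Psmd14 were added after their values were seen. The members, lists and rules were chosen with earlier results of these data known. Alternatives were eBayes with no trend or with robust spread, a floor at the 20th percentile, median centring, quantile normalization, an offset of 32 (linear scale), genes above the median level, mean or single probe sets, a threshold of 0.01, a replicate term and each array left out.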

Additional observations from a re-analysis of the deposited data

How the results depend on the processing

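No gene of the 52 passed under 8 of the other settings with all 4 arrays (no intensity trend, robust spread, quantile normalization, median centring, genes above the median level, a threshold of 0.01, an offset of 32, single probe sets), nor with a floor at the 20th percentile, where none of the 18194 genes did. Averaging probe sets gave 1, Psmc3ip. Leaving out 1 array gave 0 to 1, the latter being Psmb10 without control replicate 1 and without SAHA replicate 2. Psmb10 kept its direction under all these alternatives, with an adjusted p of 0.0385 to 0.265, and under the replicate block, with an adjusted p of 1.98e-06. The genes past the threshold among all 18194 numbered 405, but 31 without SAHA replicate 1, 90 without SAHA replicate 2, 8 at a threshold of 0.01 and 226 among genes above the median level, and 241 of 45101 probe sets passed on their own. The median change over the 52 genes was -0.0276 without control replicate 1 and 0.0513 without control replicate 2, the ends of its range with 1 array left out. Psmb10 minus Psmb7 was -1.88 to -1.07, Psmb9 minus Psmb6 -0.51 to -0.0045, and Psmb8 minus Psmb5 -0.05 to 0.27. The replicate number as a block gave 11 genes past the threshold, 4 higher (Nlrc5, Psma6, Psmd4, Tap2) and 7 lower (Erap1, Psmb10, Psmc3ip, Psmc5, Psmd7, Psmd10, Psme1), or 21.2% of the 52, where 19.9% of all genes (3616) passed. Deviations of same-numbered arrays correlated at 0.567 over all genes and 0.711 over the 52, but no label ties a number to a shared culture, so the block was not used for calls. The causes of these moves were not tested.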

Other observations

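Several immunoproteasome and class I genes lay far apart between arrays of 1 group. The control arrays differed by 0.497 log2 units for Tap1, 0.470 for Psmb9, 0.377 for Psmb10, 0.376 for Nlrc5 and 0.308 for Psmb8, against a median of 0.105 over the 52 genes and 0.166 over all genes. The SAHA arrays differed by 0.858 for Psmb10, 0.411 for Psmb9 and 0.357 for Psmb8, against medians of 0.0917 and 0.144. For Tap1, Psmb9, Psmb10, Nlrc5 and Psmb8 replicate 2 lay above replicate 1 in control and in SAHA-treated cells alike. The distances thus had the same direction in both groups, and their source was not tested. For 24 of the 52 genes, Psmb8, Psmb9 and Tap1 among them, the change with SAHA was smaller than the distance between the control arrays. The share over all genes was not counted, so this is no trait of the 52. The genes named here were singled out after their values were seen.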
